A study of Homo sapiens with 6 samples.

Results

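FXYD2, FXYD5, FXYD6, FXYD7, ATP1B1 and ATP1B3 encode regulatory and beta subunits of the sodium-potassium ATPase (Na,K-ATPase), and their transcripts were followed in MOLT-4 cells, a widely used line of human T-cell leukemia (T-ALL). These 6 genes were taken by gene symbol from 60611 genes in the deposited tables. They were chosen by their FPKM in the wild type and IK-KO libraries, with the difference between the groups known, so their values are given as a description and carry no test. PolyA RNA was sequenced from 3 wild type libraries, the control of the CRISPR knockout, and from 3 libraries labelled IK-KO, made from cells whose IKZF1 gene, encoding the DNA-binding protein IKAROS, was targeted by CRISPR. Both groups share the MOLT-4 background, the same serum-containing medium and the same library kit. According to the supplementary material, the knockout and control cells were purchased ready made. It states that the knockout of IKAROS was verified by PCR and western blot, and that more than 1 knockout clone was blotted. The labels name neither the clone sequenced nor separate cultures. A difference between lines and an effect of the edit therefore cannot be told apart, and the spread between libraries may be technical.

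The Na,K-ATPase moves sodium out of the cell and potassium in at the cost of ATP, and so sets the ion gradients that lymphocytes use for nutrient uptake, volume control and signaling. Its alpha subunit carries out catalysis, its beta subunit brings the pump to the plasma membrane, and FXYD proteins are small membrane proteins, named after a conserved Phe-X-Tyr-Asp motif, that bind the pump and tune its affinity for ions. FXYD2 is the gamma subunit best known from kidney, FXYD5 (dysadherin) is linked to cell adhesion, and FXYD6 and FXYD7 are best known from brain.

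Values are FPKM, fragment numbers scaled for transcript length and library size, so that levels can be compared between genes. The FPKM summed to between 699352 and 738051 per library. Judged by the confidence bounds in the tables, 16.3 to 19.8 fragments stood behind each FPKM and kilobase. All 10 T-lineage markers examined passed the filter on low values, with CD3E, a chain of the T-cell receptor complex, at between 372 and 425 FPKM, whereas the 10 markers of B, myeloid, erythroid and epithelial cells summed to at most 2.49 FPKM in any library, with HBB and EPCAM at 0 in each. A gene is called changed at a limma adjusted p under 0.05, which held for 19.9% of all tested genes. Of the T-lineage markers, 9 were called, all but CD3E. The 4 higher ones were CD3D, CD3G, CD1A and PTCRA. The 5 lower ones were CD4 (mean 2.76 FPKM in wild type, 0.384 FPKM with the IK-KO label), CD7 (15.8 and 4.17), CD8A (9.02 and 2.94), CD5 (25.3 and 11.7) and TAL1 (23.1 and 12.3). CD4 thus passed the filter through its wild type level. TAL1 is a transcription factor activated in T-ALL, so it marks the leukemia rather than normal T cells. The summed level of the 10 markers, of which CD3D and CD3E were the largest parts, was between 1061 and 1110 FPKM in wild type. It was between 1177 and 1338 FPKM in the IK-KO-labelled libraries. The part of this in the results that follow was not tested. IKZF1 (chromosome 7, 50304068 to 50405101) had 134, 124 and 105 FPKM in the wild type libraries, versus 207, 260 and 207 FPKM in the IK-KO-labelled libraries, higher by 0.89 on the log2 scale (SE 0.12, limma adjusted p 0.00295). Its RNA was thus higher where the gene was targeted, so the groups are called by their labels. The IKAROS protein is not measured in these data.

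Among the members, FXYD6 was much higher, FXYD2 lower and FXYD5 slightly lower in the IK-KO-labelled libraries, the levels of ATP1B1 and ATP1B3 overlapped between the groups, and FXYD7 was listed at 0 throughout. The filter, a mean of at least 1 FPKM over the 6 libraries, was passed by 5 of the 6 members. The groups did not overlap for 3 of these, 1 on the higher side and 2 on the lower. Among all 12652 genes that passed the filter, 39.0% did not overlap (20.9% higher and 18.1% lower). Nothing is read from this count, since the same contrast chose the members. The plot of FPKM by library shows these values.

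**Figure D1:**
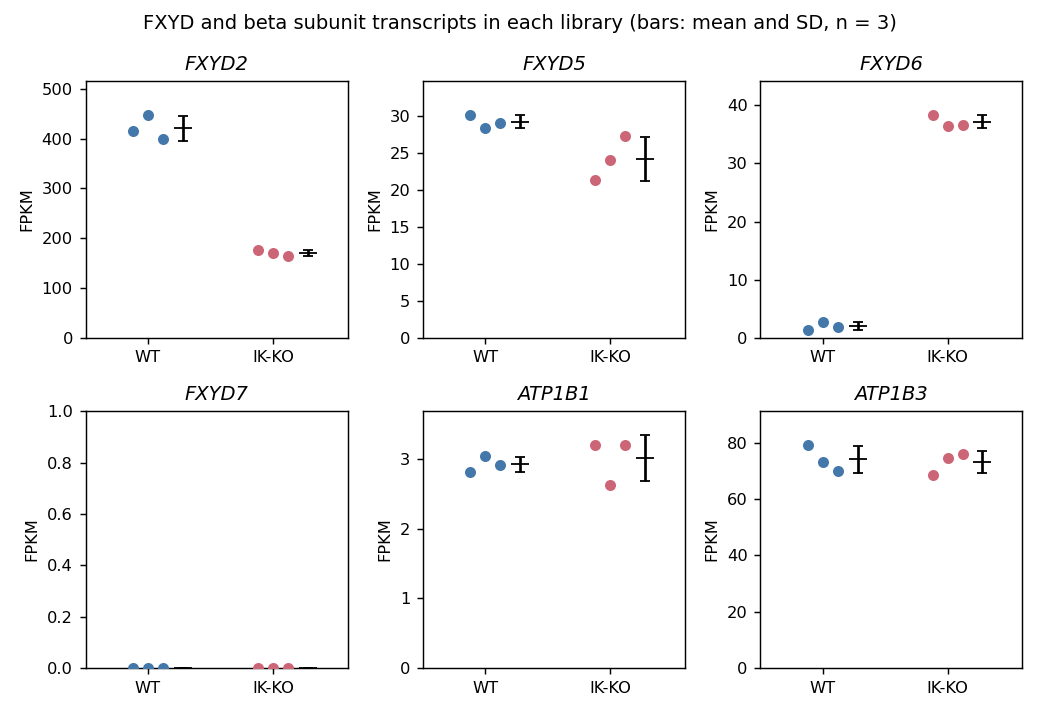
FPKM (vertical axes, each from 0) of the 6 member genes in wild type (WT) and IK-KO libraries, with 1 point per library and the mean and SD (n = 3) beside them. FXYD6 lies between 36.4 and 38.4 FPKM in the IK-KO-labelled libraries and at most at 2.73 FPKM in wild type, FXYD2 and FXYD5 lie lower in the IK-KO-labelled libraries, FXYD7 lies at 0, and ATP1B1 and ATP1B3 overlap between the groups.

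FXYD6 (ENSG00000137726.17) is transcribed from the minus strand (chromosome 11, 117836976 to 117877486, GRCh38). It had 1.40, 2.73 and 1.81 FPKM in wild type replicates 1 to 3 and 38.4, 36.4 and 36.6 FPKM in IK-KO replicates 1 to 3. All libraries labelled IK-KO were high and all wild type libraries low, with no overlap. The mean was 1.98 ± 0.682 FPKM in wild type and 37.2 ± 1.10 FPKM in the IK-KO-labelled libraries (SD, n = 3), a ratio of 18.8. On the log2(FPKM + 1) scale, which understates the change of a gene with low FPKM, the difference was 3.70 (SE 0.16). The confidence bounds were also far apart, with a highest upper bound of 4.01 FPKM in wild type and a lowest lower bound of 33.5 FPKM in the IK-KO-labelled libraries, a ratio of 8.34. FXYD6 was thus a gene of low level in wild type and stood above FXYD5 with the IK-KO label. In bulk RNA, more cells with the transcript and more transcript per cell cannot be told apart.

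The RefSeq promoter table (GRCh38.p14) has a window before 2 start sites of FXYD6, and stretches upstream of annotated exons are shown because FXYD6 is the member with the largest ratio between the groups. FXYD5, whose log2 change was small and in the other direction, is shown for comparison. The capitals mark GGGAA, the core recognized by IKAROS-type zinc fingers, or TGGGAA, which contains it, on either strand (the complements read TTCCC and TTCCCA).
FXYD6, outer start site, minus strand, chr11:117877487-117877680: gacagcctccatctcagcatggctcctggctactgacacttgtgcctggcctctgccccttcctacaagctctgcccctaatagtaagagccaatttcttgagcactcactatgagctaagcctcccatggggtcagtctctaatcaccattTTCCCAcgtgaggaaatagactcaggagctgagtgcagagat
FXYD5, plus strand, chr19:35154485-35154729: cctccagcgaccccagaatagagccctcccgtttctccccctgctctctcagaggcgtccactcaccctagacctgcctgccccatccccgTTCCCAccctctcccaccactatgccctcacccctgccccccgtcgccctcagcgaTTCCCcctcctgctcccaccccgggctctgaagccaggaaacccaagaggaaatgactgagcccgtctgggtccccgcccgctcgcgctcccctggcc

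The 250 bases before the outer start site of FXYD6 held 1 match to the longer motif and no further match to the core. Their GC content was 52.0%, with 4 CpG dinucleotides. The inner start site (250 bases, chromosome 11, 117876659 to 117876908), which lies wholly in annotated exons and is not printed, held 1 match to the core and 0 to the longer motif. Its GC content was 74.8%, with 23 CpG dinucleotides. The FXYD5 window held 2 matches to the core, 1 of them within the longer motif, and the windows of ATP1B1 and ATP1B3 held 0. Of 35116 RefSeq windows of this length, 59.0% held GGGAA and 20.8% held TGGGAA on either strand. The tables carry no binding data, so these matches only describe the letters. FXYD2 and FXYD7 have no entry.

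FXYD2 (ENSG00000137731.14) lies 8277 bases downstream of FXYD6 on the same strand, at 117800844 to 117828698 on chromosome 11. It had 415, 448 and 399 FPKM in the wild type libraries, versus 175, 170.1 and 164 FPKM in the IK-KO-labelled libraries. Every library labelled IK-KO was below every wild type library. The mean was 421 ± 24.9 FPKM in wild type and 169.7 ± 5.91 FPKM with the IK-KO label (SD, n = 3), 2.48 times lower, or −1.30 on the log2 scale (SE 0.06). The lowest lower bound in wild type, 375 FPKM, was 1.97 times the highest upper bound in the IK-KO-labelled libraries, 189.9 FPKM. FXYD2 had the highest FPKM of the members in both groups, so the adjacent genes FXYD2 and FXYD6 differed in opposite directions from very unequal levels. The ratio of FXYD2 to FXYD6 was 228 ± 66.8 in wild type and 4.57 ± 0.0999 in the IK-KO-labelled libraries (SD, n = 3).

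A read-through gene, FXYD6-FXYD2 (ENSG00000255245.4), spans both, and of its 782 exonic bases in GENCODE release 44 it shares 390 with FXYD6 and 392 with FXYD2, so fragments of the 3 genes may have been divided among them. FXYD2 and FXYD6 themselves share 0 exonic bases. The read-through gene had 0.501, 0.719 and 0.551 FPKM in the wild type libraries, versus 0.421, 1.12e-48 and 0.494 FPKM in the IK-KO-labelled libraries. These levels lie below the filter and are far smaller than the differences in FXYD2 and FXYD6. An antisense transcript, ENSG00000254528.7, shares 625 exonic bases with FXYD6. It was at most 0.289 FPKM in any library, and the strand setting of the counting is not given in the sources used here.

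FXYD5 (chromosome 19, 35154730 to 35169881) had 30.2, 28.4 and 29.1 FPKM in the wild type libraries, versus 21.3, 24.0 and 27.2 FPKM in the IK-KO-labelled libraries. The groups did not overlap, but IK-KO replicate 3 lay close to the wild type libraries. The means were 29.2 ± 0.911 and 24.2 ± 2.94 FPKM (SD, n = 3), which differ by −0.27 on the log2 scale (SE 0.09). The confidence bounds of the groups overlapped, since the lowest lower bound in wild type was 25.2 FPKM and the highest upper bound in the IK-KO-labelled libraries was 30.3 FPKM. FXYD7 (chromosome 19, 35143250 to 35154301) ends 428 bases before FXYD5 and was at 0 in all 6 libraries. FXYD1 and FXYD3, upstream in the same cluster, and FXYD4 on chromosome 10 were at 0 in all 6 as well, so FXYD5 is the expressed member of a chromosome 19 cluster whose other FXYD genes were listed at 0.

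The summed FXYD transcripts were lower in the IK-KO-labelled libraries, and their makeup differed. FXYD genes together held 447, 479 and 430.3 FPKM in wild type and 235, 231 and 227 FPKM in the IK-KO-labelled libraries. FXYD6 made up 0.434% ± 0.129 of this sum in wild type and 16.1% ± 0.267 in the IK-KO-labelled libraries (SD, n = 3). FXYD2 made up 93.1% ± 0.371 and 73.4% ± 1.36, and FXYD5 6.48% ± 0.484 and 10.5% ± 1.45 (SD, n = 3). The share of FXYD5 was larger although its level was lower, as the sum was lower by more. FXYD2, chosen by this same contrast, made up most of the sum in every library, so the lower sum mainly restates its lower level. These are RNA levels, not proteins in the pump.

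**Figure D2:**
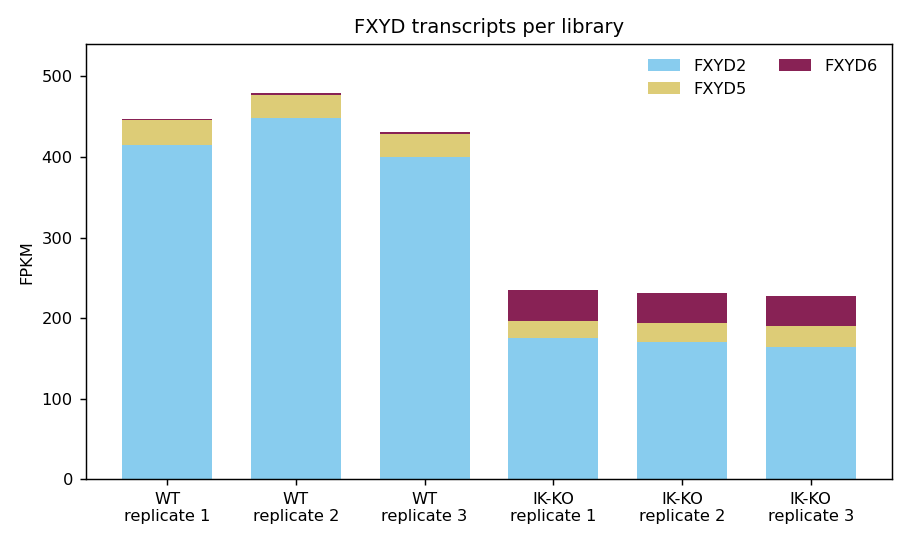
Stacked bars give the FPKM of FXYD2, FXYD5 and FXYD6 (vertical axis) in each library (horizontal axis). The bars reach between 430.3 and 479 FPKM in wild type (WT) and between 227 and 235 FPKM in the IK-KO-labelled libraries, and the FXYD6 segment is a thin line in wild type.

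Of the beta subunits, ATP1B3, also known as CD298 on leukocytes, was the abundant one. ATP1B3 (chromosome 3, 141876124 to 141926549) had 79.3, 73.2 and 69.9 FPKM in the wild type libraries, versus 68.5, 74.6 and 75.9 FPKM in the IK-KO-labelled libraries. The groups overlapped, with means of 74.1 ± 4.75 and 73.0 ± 3.95 FPKM (SD, n = 3) and a log2 difference of −0.02 (SE 0.07). The estimate was loose in IK-KO replicate 1, with bounds of 44.1 and 92.9 FPKM. ATP1B1 (chromosome 1, 169105697 to 169132722), the main beta subunit of kidney, was measured as 2.82, 3.04 and 2.92 FPKM in the wild type libraries, versus 3.21, 2.63 and 3.20 FPKM in the IK-KO-labelled libraries. These values overlapped too, at 2.93 ± 0.109 and 3.01 ± 0.329 FPKM (SD, n = 3), with a log2 difference of 0.03 (SE 0.12). The 50 tested genes nearest to ATP1B1 had a median log2 change of 0.19. Relative to them, ATP1B1 was lower by 0.17. ATP1B1 shares 192 bases of its span with NME7, a gene of nucleotide kinase type, and without a stated strand setting fragments there are uncertain.

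ATP1B3 supplied 95.8% ± 0.187 of the summed beta subunit FPKM in wild type and 95.8% ± 0.542 in the IK-KO-labelled libraries (SD, n = 3). ATP1B2 was at most 0.480 FPKM and ATP1B4 was at 0. The beta subunits together held 77.3 ± 4.89 FPKM in wild type and 76.2 ± 3.95 FPKM in the IK-KO-labelled libraries (SD, n = 3), a difference smaller than the spread between libraries, unlike that of the FXYD sum. In wild type the order of the members was FXYD2, ATP1B3, FXYD5, ATP1B1, FXYD6 and FXYD7. In the IK-KO-labelled libraries it was FXYD2, ATP1B3, FXYD6, FXYD5, ATP1B1 and FXYD7. No neighbors in either order overlapped between their libraries, so FXYD6 passed both ATP1B1 and FXYD5.

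The pump works alongside channels, exchangers, kinases and other pumps, and 7 lists of these and of other beta and FXYD genes held 79 genes outside the members. Of these, 53 passed the filter and 19 were called, 7 of them upwards and 12 downwards. That is 35.8%, beside 19.9% of all tested genes (10.1% higher and 9.75% lower). The lists were chosen with earlier results of these data known and were counted without some of their genes. Nothing is therefore read from the difference between these shares. Their median log2 change was −0.05, against 0.02 for all tested genes. None of the H,K-ATPase, other beta or other FXYD genes passed the filter.

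Among pump kinases and partners, 2 of 9 tested genes were called. NKAIN4, which encodes a membrane protein that interacts with the Na,K-ATPase, had 11.2, 12.4 and 11.8 FPKM in the wild type libraries, versus 36.7, 35.1 and 34.5 FPKM in the IK-KO-labelled libraries. It rose without overlap, by 1.51 on the log2 scale (SE 0.07, limma adjusted p 3.02e-05). PRKACB, a catalytic subunit of protein kinase A, which can phosphorylate FXYD proteins and the pump, fell from 24.2 ± 2.14 to 10.4 ± 0.112 FPKM (SD, n = 3; log2 change −1.14, limma adjusted p 0.000198). PRKACA, another catalytic subunit in this list, named after its values were seen, was not called (log2 change −0.02, limma adjusted p 0.883). Its level was 33.3 ± 1.80 FPKM in wild type and 32.9 ± 2.15 FPKM with the IK-KO label (SD, n = 3). SGK1, NEDD4L, WNK1, OXSR1 and STK39, of the kinase and ubiquitin ligase network that controls sodium transport, were not called.

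In the list of sodium entry and exchange, 6 of 15 tested genes were called, 2 higher and 4 lower. SLC1A5, a sodium-coupled glutamine transporter, rose from 43.9 ± 1.50 to 61.4 ± 0.601 FPKM (SD, n = 3; log2 change 0.48, limma adjusted p 0.00101). SLC38A1, another sodium-coupled glutamine transporter, rose by 0.28 on the log2 scale with an adjusted p of 0.0497 (limma), and its call was lost in 7 of 11 alternatives, among them those without wild type replicate 1 or 3 or any of the IK-KO replicates (range 0.0243 to 0.146). The largest falls were in the sodium-proton exchangers of inner membranes SLC9A9 (log2 change −1.11, limma adjusted p 0.0218, lost in 4 of 11 alternatives) and SLC9A7 (−0.93, limma adjusted p 0.00615). The call of SLC9A9 was lost without the filter and when either replicate 1 or IK-KO replicate 3 was left out (range of its limma adjusted p 0.0162 to 0.0834). SLC9A9 averaged 2.88 FPKM in wild type and 0.744 FPKM with the IK-KO label. It thus passed the filter through its wild type level. The remaining falls were named after their values were seen. They were SLC12A2, a sodium-potassium-chloride cotransporter, and SCN3A, a sodium channel (−0.64 and −0.66 on the log2 scale).

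In the list of potassium exit, 6 of 12 tested genes were called, 2 higher and 4 lower. The tested genes of this list include LRRC8A, LRRC8B, LRRC8C and LRRC8D, which encode subunits of a volume-regulated anion channel. None of these was called. SLC12A7, a potassium-chloride cotransporter, rose from 18.3 ± 0.538 to 39.4 ± 3.24 FPKM (SD, n = 3; log2 change 1.06, limma adjusted p 0.000188), and KCNK5, a background potassium channel, from 8.11 ± 0.622 to 17.9 ± 1.25 FPKM (SD, n = 3; log2 change 1.05, limma adjusted p 0.000432). KCNA3, the voltage-gated channel of T cells, fell from 2.51 ± 0.359 to 0.164 ± 0.102 FPKM (SD, n = 3; log2 change −1.59, limma adjusted p 0.00118), and KCNK6, another background potassium channel, from 3.26 ± 0.872 to 0.996 ± 0.182 FPKM (SD, n = 3; log2 change −1.08, limma adjusted p 0.00768). KCNA3 and KCNK6 passed the filter through their wild type levels. Members of the channel families thus differed in both directions. The other called genes, KCNN4 and KCNK1, named after their values were seen, were lower.

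Among the other P-type pumps, 5 of 17 tested genes were called. ATP8A1 and ATP11B, which flip phospholipids across membranes, fell from 5.10 ± 1.26 to 0.370 ± 0.0770 FPKM and from 39.0 ± 5.40 to 18.5 ± 1.57 FPKM (SD, n = 3; limma adjusted p 0.000470 and 0.00120). ATP9A, of the same broad class, rose by 0.81 on the log2 scale (limma adjusted p 0.00338), and ATP2B4, a calcium pump of the plasma membrane, by 0.31 (limma adjusted p 0.0136). ATP2A3, a calcium pump of the endoplasmic reticulum named after its values were seen, fell by 0.47 on the log2 scale. Of the called pumps, ATP8A1 passed the filter through its wild type level.

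**Figure D3:**
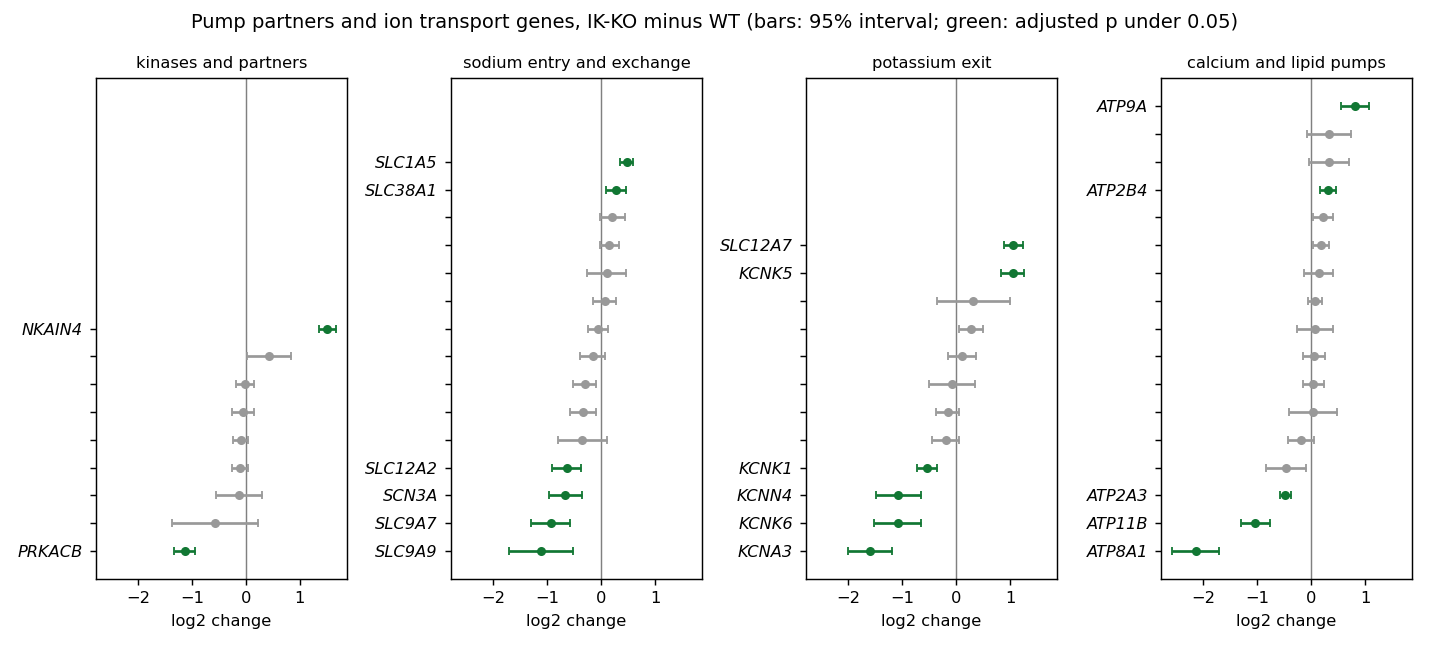
Log2 change on the log2(FPKM + 1) scale, IK-KO minus wild type (horizontal axes), with its 95% interval, for the 53 tested genes of the lists, 1 panel per list, with genes at an adjusted p under 0.05 in green and labelled. Called genes lie on both sides of 0 in each of the 4 panels, from −2.14 for ATP8A1 to 1.51 for NKAIN4.

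Genes near the members were compared to see whether the FXYD6 and FXYD2 differences extended along the chromosome. Within 500 kb of FXYD6, 24 genes are listed outside the members and 7 passed the filter. The nearest tested genes, CEP164 (centrosomal protein, 424 kb away) and IL10RA (interleukin 10 receptor chain, 109 kb away), were not called, with log2 changes of −0.05 and −0.30 (limma adjusted p 0.862 and 0.659). IL10RA was at 0.587, 0.556 and 3.47 FPKM in the IK-KO-labelled libraries, and it was called lower without IK-KO replicate 3 (log2 change −0.80, limma adjusted p 0.0399; range over its alternatives 0.0399 to 0.962). CD3G and CD3D, T-cell receptor complex chains 467 and 461 kb away, rose by 0.65 and 0.44 on the log2 scale (limma adjusted p 0.00158 and 0.0338), whereas CD3E between them and FXYD6 was not called (log2 change −0.08, limma adjusted p 0.327). The call of CD3D was lost in 7 of 11 alternatives, namely both other scalings, no filter, and leaving out wild type replicate 1 or 2 or IK-KO replicate 2 or 3 (range of its limma adjusted p 0.0150 to 0.129), while that of CD3G was kept in each. The 17 genes below the filter did not exceed 2.04 FPKM in any library. No gene outside the members was tested between CEP164 and IL10RA, so the stretch closest to FXYD6 and FXYD2 was not tested.

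**Figure D4:**
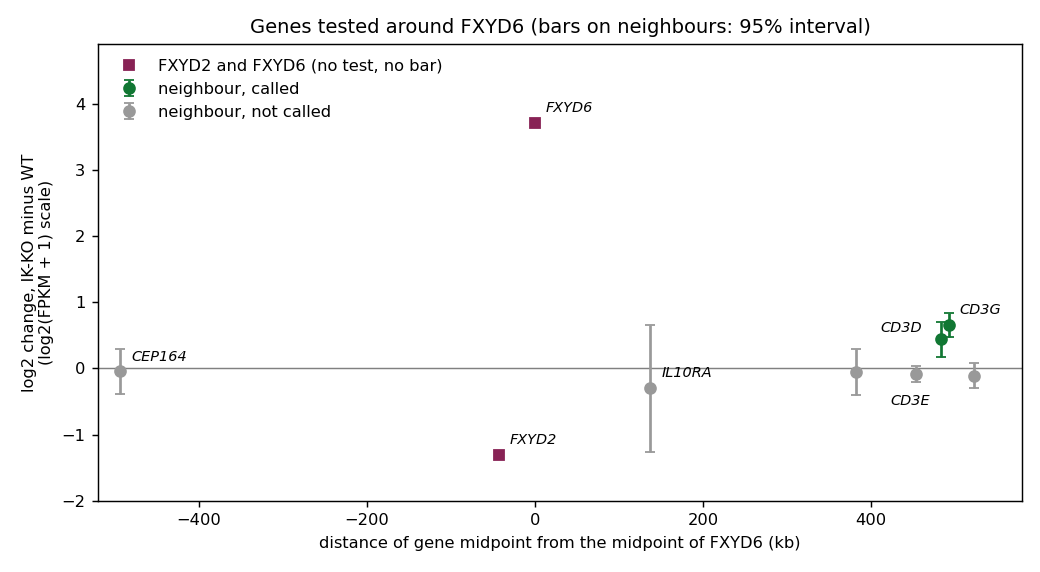
Log2 change (IK-KO minus wild type, log2(FPKM + 1) scale, vertical axis) of the 7 tested genes within 500 kb of FXYD6, by the distance of their midpoints from that of FXYD6 in kb, with 95% intervals, those described in the text being labelled. FXYD6 lies at 3.70 and FXYD2 at −1.30, and the neighbors lie between −0.30 and 0.65. FXYD6 and FXYD2 were chosen by this same contrast, so nothing is read from the distance between them and the neighbors.

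Over all members, 32 neighboring genes were tested and 6 were called, 3 higher and 3 lower, which is 18.8% beside 19.9% of all tested genes. Without wild type replicate 2, 3 were called. Beside FXYD5 and FXYD7, 3 of 14 were called. ZNF792, a zinc finger gene, changed most of these (log2 change −1.50, limma adjusted p 0.00116). Its means were 2.17 FPKM in wild type and 0.123 FPKM with the IK-KO label, so it passed the filter through its wild type level. The nearest tested genes GRAMD1A and USF2 were not called (limma adjusted p 0.168 and 0.176). GRAMD1A became called without IK-KO replicate 1 (limma adjusted p 0.0475; range over its alternatives 0.0475 to 0.367). Beside ATP1B1, 0 of 4 were called by limma, with BLZF1 nearest on the far side of NME7 at an adjusted p of 0.0885. Beside ATP1B3, the adjacent gene TFDP2, a partner of E2F cell cycle factors 17.9 kb away, fell from 164 ± 4.46 to 117 ± 5.08 FPKM (SD, n = 3; log2 change −0.49, limma adjusted p 0.000914). RNF7 on the other side was not called (limma adjusted p 0.686).

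The genes whose profiles over the 6 libraries lay nearest to that of each member were found by the Euclidean distance between centered log2(FPKM + 1) values. For FXYD6 these were MARCKS (distance 0.59), a substrate of protein kinase C, TMEM132A (0.69), GPR183 (1.42), an oxysterol receptor, SLC18A2 (1.42), a vesicular monoamine transporter, and SNHG25 (1.82), a noncoding gene. Of these, TMEM132A, SLC18A2 and SNHG25 averaged 0.797, 0.487 and 0 FPKM in wild type, so they passed the filter through the IK-KO-labelled libraries. SNHG25 varied there, at 13.5, 2.35 and 8.06 FPKM. The distances follow the same group difference by which FXYD6 was chosen, so nothing is read from them. For FXYD2 the nearest were TNFSF10, the death ligand TRAIL, and COTL1, an actin-binding protein (0.11 and 0.12). TNFSF10 was at 2.23 ± 0.149 FPKM in wild type and 0.252 ± 0.0327 FPKM with the IK-KO label (SD, n = 3). That is 8.85 times lower, against 2.48 times for FXYD2, and the log2(FPKM + 1) scale understates the change of such a low gene. TNFSF10 passed the filter through its wild type level. COTL1 lay between 103 and 108 FPKM in wild type and between 42.6 and 45.2 FPKM in the IK-KO-labelled libraries. FXYD5 was nearest to AC012467.2 and RCL1 (0.07 and 0.10), ATP1B1 to ZNF506 and AP3B1 (0.05 and 0.07), and ATP1B3 to MLST8 and TMEM209 (0.06 and 0.06). No Na,K-ATPase gene was among them.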

How the data were processed

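PolyA RNA of 6 MOLT-4 libraries (3 wild type, 3 IK-KO, by the titles) was analysed from the deposited gene tables. Their unit is FPKM, for which the authors had already divided fragments by length and by sequencing depth. The submitters' processing notes name STAR 2.6.1c, Cufflinks 2.2.1, HOMER 4.10 and hg38. The annotation and strand setting are not given in the sources used here, so overlapping and antisense genes are uncertain. Of 60752 table rows, those of 1 identifier were summed, and 29 genes with a failed estimate were left out. All 49727 identifiers on a single row that also occur in GENCODE 44 lie at its GRCh38 position. No counts are given, so no count test was used.

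Changes of log2(FPKM + 1) were tested with limma 3.58.1 in R 4.3.3 (eBayes with trend, two-sided) in the 12652 genes averaging 1 FPKM or more, with p-values adjusted by Benjamini-Hochberg, and the fit was tested on simulated data. A gene is called at an adjusted p under 0.05. The members and lists were chosen with earlier results of these data known. Named genes were the members, FXYD6-FXYD2, IKZF1, the 2 largest called rises and falls per list, the nearest tested gene on each side of a member within 500 kb and the largest called change there, and the 5 (FXYD6) or 2 (others) nearest profiles. Some genes of the rule and lists are not reported here, and the lists were counted without them. Replicate numbers were not treated as pairs.
Alternatives were another pseudocount, no filter, upper quartile and median of ratios scaling, a replicate block, removal of the median change of nearby genes, a narrower window and each library left out.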

Additional observations from a re-analysis of the deposited data

How the results depend on the processing

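The log2 change of FXYD6 was 4.22 with a pseudocount of 0.1, and lay between 3.56 and 3.88 when each library was left out in turn. That of ATP1B1 became −0.17 with the median of its 50 nearest tested genes removed. Other member values moved by less than the spread between libraries: without each library in turn, FXYD2 lay between −1.34 and −1.26, FXYD5 between −0.35 and −0.18, ATP1B1 between −0.01 and 0.10 and ATP1B3 between −0.06 and 0.03. The called neighboring genes numbered 2 of 10 within 250 kb (20.0%) and between 3 and 5 with a library left out, lowest without wild type replicate 2. The called pump and ion transport genes stayed between 17 and 22. Of 36 genes outside the members that were examined in all 11 alternatives, 31 were called or not called as in the report in each. SLC38A1, SLC9A9, CD3D, IL10RA and GRAMD1A were not. The 36 leave out, among others, the genes named for their profiles, PRKACA and the LRRC8 genes. The replicate numbers mark no shared origin in the labels, and deviations of same-numbered libraries had correlations of 0.0669, 0.0248 and 0.00546. Adding the replicate block left 1805 called genes instead of 2515, and 18 called pump and ion transport genes instead of 19. Without the filter 2011 genes were called. Depth limits what can be said of FXYD7 and other genes listed at 0.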
